A study of Mus musculus with 78 samples.

Results

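Livers of mice that drank dichloroacetic acid (DCA) for 10 weeks and then plain water for 68 weeks, the group S1-78, were compared with livers of mice given plain water for all 78 weeks, the group Control-78. The libraries were chosen by these labels, with the condition that the authors had kept them in their normalized table. All 6 libraries of S1-78 (mice 31 to 36) and all 6 of Control-78 (mice 85 to 90) met it, so 12 of the 68 kept libraries, out of 78 in the count table, are described here. The animals were male B6C3F1 mice, 4 weeks old when treatment began, and the DCA dose was 3.5 g/L in drinking water. Every library came from 1 mouse, from liver archived as formalin-fixed, paraffin-embedded tissue. Transcripts were read with TempO-Seq, which joins pairs of probes on a target transcript and counts the joined product, on a panel of 2755 genes. Further groups enter where a difference was tested. S1-57 (10 weeks of DCA, 47 of water, n = 6) was used with Control-57 (n = 6). S1-10 (10 weeks of DCA, n = 6) was used with Control-10 (n = 4). S2-78 (32 weeks of DCA, 46 of water, n = 4) was compared with S1-78. For levels alone, S1-32 (10 weeks of DCA, 22 of water, n = 6) and Control-32 (n = 6) were added. All were of the same strain, sex and starting age.

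DCA blocks the kinases that switch off pyruvate dehydrogenase, and so drives pyruvate into mitochondrial oxidation. Lasting exposure produces liver tumours in mice, and the authors of the study report from earlier work that short early exposure raises tumour burden as well. The question behind a short early exposure is what remains in the liver long after the compound is gone. In liver, fibrillar collagens are made mainly by stellate cells and portal fibroblasts, while hepatocytes supply most enzymes of drug, lipid and glucose metabolism, so the panel reads several cell types at the same time.

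Total counts ran from 1665464 to 3301147 in S1-78 (median 2684483.5) and from 2098777 to 4285848 in Control-78 (median 3505219.5). Between 2126 and 2536 genes had a count in S1-78 and between 2355 and 2535 in Control-78. Levels are given as CPM, counts scaled to a common library total with TMM factors, and each is listed as lowest, median and highest of 6 mice. A gene was called a differentially expressed gene (DEG) when edgeR gave an adjusted p no higher than 0.05 with at least a 1.5-fold difference, among 2205 genes tested. Gene symbols are printed in capitals, as the count table lists them. Hepatocyte markers were present in every library: 11 markers summed to 80214 to 139359 CPM in S1-78 and to 87272 to 144467 CPM in Control-78, with APOE, the main apolipoprotein of lipoprotein remnants, the most abundant.

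Some livers stood apart from their group before any comparison was made. Mouse 36 of S1-78 carried digestive enzyme transcripts of the exocrine pancreas: 18 pancreas markers summed to 32374 CPM there, against 278 to 469 CPM in the other mice of S1-78 and 456 to 666 CPM in the controls. The same liver held transcripts of skeletal muscle, with 20 muscle genes summing to 10234 CPM against 94.7 to 145 CPM in its group and 41.8 to 121 CPM in the controls. Mouse 31 of S1-78 held AFP, alpha-fetoprotein, a fetal serum protein that adult liver hardly makes, at 2177 CPM, while the other 11 mice lay between 5.49 and 20.2 CPM. High AFP was not confined to S1-78. Its highest value was 551 CPM in S1-57 (median 7.79 CPM) against 16.5 CPM in Control-57, and 99.7 CPM in Control-10. MUP8, a major urinary protein secreted by male liver, took 0.56% of all counts in mouse 31, against 3.25% to 21.5% in the rest of S1-78 and 8.79% to 35.3% in the controls. Probes for the closely similar Mup genes can share reads, so its level is uncertain, and with a log2 fold change of -1.80 (SE, the standard error, 0.83, adjusted p = 0.303) it was not a DEG. Mouse 90 of Control-78 had the highest sum of 14 immediate-early genes, at 6698 CPM, against 855 to 3247 CPM in the other controls and 552 to 3106 CPM in S1-78.

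**Figure D1:**
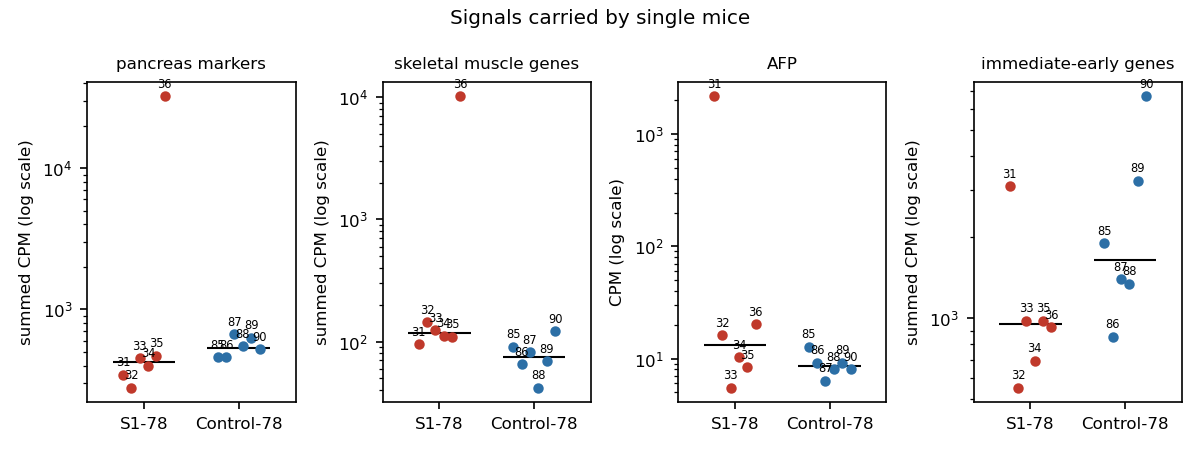
Summed CPM of pancreas markers, skeletal muscle genes and immediate-early genes, and CPM of AFP, in each mouse (points, numbered; log axes; bars are group medians). Mouse 36 stands alone in the pancreas and muscle panels, mouse 31 in the AFP panel, and mouse 90 is the highest in the immediate-early panel.

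After 68 weeks without DCA, 40 genes (1.81% of 2205) separated the livers from age-matched controls. Of these, 22 rose (0.998%) and 18 fell (0.816%), while 299 genes (13.6%) had an unadjusted p under 0.05. The rises included collagen genes high in nearly all treated mice, and pancreas and muscle genes high in mouse 36 and AFP in mouse 31. The falls included the insulin signalling adaptor IRS1, the oxidizing enzymes FMO5 and ALDH2 and the chaperone HSPA4, and also TRIB1, SRXN1 and GADD45A, which were high in control mouse 90. Complete separation of the groups was found for 27 genes with every S1-78 mouse above every control (1.22%) and for 22 with every S1-78 mouse below (0.998%); among the DEGs these numbered 7 and 6.

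The count of DEGs depended on a few livers. It was 20 without mouse 36, 21 without mouse 90, 24 without mouse 89, 26 without mouse 87 and 75 without mouse 32. Leaving out mice 31 and 36 together, which was decided after their values were seen, gave 11 DEGs, and leaving out mouse 90 as well gave 2, namely COL1A1 and FOS. In each of the 12 fits without 1 library, all 40 kept their direction, and 8 kept their call every time: COL1A1, COL1A2, COL3A1, SDPR, IRS1, FMO5, HSPA4 and FOS. A fit of the 12 libraries alone with edgeR called 0 genes, with 338 at an unadjusted p under 0.05, while DESeq2 on all groups called 85.

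**Figure D2:**
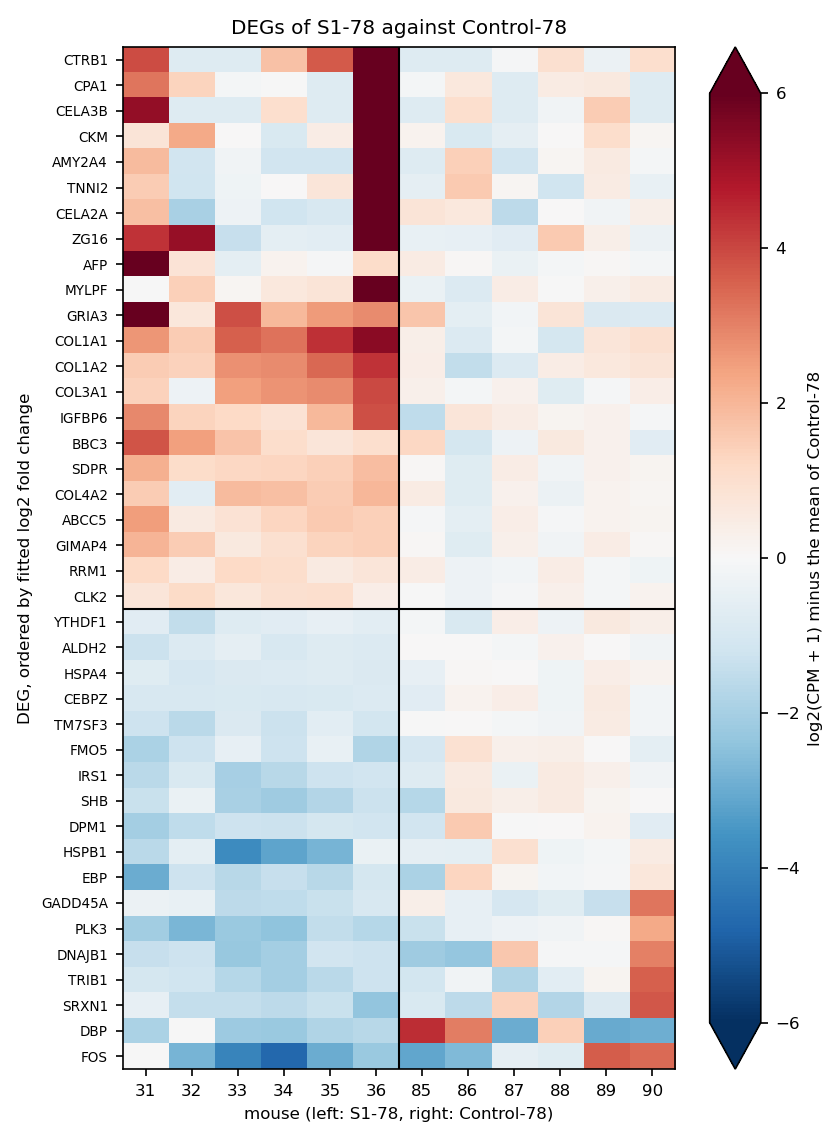
The 40 DEGs in each of the 12 mice, as log2(CPM + 1) minus the mean of Control-78, with genes ordered by fitted log2 fold change; the colour scale ends at 6 in either direction. Pancreas and muscle genes are high in mouse 36, AFP in mouse 31, collagens across S1-78, and several genes at the bottom are high in mouse 90.

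Of the genes of fibrillar collagen, the main protein of scar and connective tissue, COL1A1, COL1A2 and COL3A1 rose in S1-78. COL1A1, the alpha-1 chain of type I collagen (ENSMUSG00000001506, GRCm38 chromosome 11), had 63.8, 241 and 970 CPM in S1-78 against 9.97, 23.7 and 42.5 CPM in Control-78. All 6 treated mice lay above every control, mouse 36 highest and mouse 32 lowest, and the log2 fold change was 3.83 (SE 0.62, adjusted p = 0.000116). It was 3.22 (adjusted p = 0.00111) without mouse 36, and 3.58 (adjusted p = 0.00286) without mice 31, 36 and 90. COL1A2, which supplies the other chain of type I collagen, had 24.2, 65.8 and 196 CPM against 2.5, 12 and 15.7 CPM. Here too no control reached the lowest treated mouse, and the log2 fold change was 2.98 (SE 0.63, adjusted p = 0.00389). COL3A1, the chain of type III collagen that is laid down beside type I, had 9.4, 76.4 and 199 CPM against 6.64, 12.8 and 15.7 CPM. Mouse 32 alone lay within the control range, the other 5 lay above it, and the log2 fold change was 2.71 (SE 0.58, adjusted p = 0.00407). With mice 31, 36 and 90 left out, the adjusted p of both COL1A2 and COL3A1 was 0.115.

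Since these fibrillar collagen genes moved together, the sequence before the start site of COL1A2 and COL3A1 is shown, from the RefSeq promoter table (GRCm38.p6). Windows of 300 bases, 250 of them before the start site, were searched on both strands for the promoter box CCAAT, the initiation element TATAAA and the GC-rich element GGGCGG, and capitals mark matches within the printed stretch. The stretch of COL1A2 (chr6:4505370-4505492, plus strand) leaves out bases that GENCODE annotates as exon, and that of COL3A1 (chr1:45311288-45311537, plus strand) ends at the base before its start site.
COL1A2: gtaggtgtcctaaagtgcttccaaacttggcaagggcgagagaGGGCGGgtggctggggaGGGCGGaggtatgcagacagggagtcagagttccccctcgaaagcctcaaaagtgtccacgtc
COL3A1: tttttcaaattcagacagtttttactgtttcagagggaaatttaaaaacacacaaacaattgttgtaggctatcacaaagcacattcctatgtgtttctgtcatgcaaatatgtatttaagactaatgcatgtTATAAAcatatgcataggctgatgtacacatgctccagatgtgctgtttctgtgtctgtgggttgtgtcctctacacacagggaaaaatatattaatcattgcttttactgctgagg
The COL1A2 window holds GGGCGG at 205 and 188 bases before the start site, CCAAT at 109 bases before it and again at it on the other strand, and no TATAAA. The COL3A1 window holds TATAAA at 117 bases before the start site and neither of the other motifs, so the 2 windows share none of the 3. Of all 32851 windows in the table, 37.4% hold CCAAT, 13.6% TATAAA and 35.7% GGGCGG.

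A basement membrane collagen also rose. COL4A2, a chain of the type IV collagen network under epithelium and endothelium, had 36.3, 185 and 233 CPM against 34.2, 63.2 and 81.7 CPM. Mouse 32 again lay among the controls and the other 5 above them, with a log2 fold change of 1.52 (SE 0.38, adjusted p = 0.018); the adjusted p was 0.064 without mouse 36 and 0.0546 without mouse 86. COL4A1, the partner chain encoded next to it, had 4.7, 34.4 and 57.3 CPM against 2.5, 10.2 and 18.1 CPM and was not a DEG (log2 fold change 1.66, adjusted p = 0.164). Mouse 33 was highest and mouse 32 lowest in S1-78, with 5 of 6 above every control.

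Across the list of interstitial collagens, 3 of 9 genes tested were DEGs, all higher, where 0.998% of all genes were higher DEGs. All 9 had a log2 fold change above 0, a sign shown by 54.3% of all genes. Their median log2 fold change was 1.23 against 0.07 for all genes tested, and 0.70 without mouse 36. COL6A2, a chain of the microfibrillar type VI collagen, had 6.71, 31.6 and 115 CPM against 10.9, 14.2 and 32.9 CPM (log2 fold change 1.23, adjusted p = 0.161), with overlapping groups. Of 5 basement membrane collagens and laminins, COL4A2 alone was a DEG and the median was 1.08, or 0.64 without mouse 36. None of 7 genes that process and cross-link collagen was a DEG by edgeR (0 by DESeq2), with 1 at an unadjusted p under 0.05. That gene was LOXL1, a cross-linking oxidase, at 8.06, 18.5 and 116 CPM against 4.17, 11.6 and 19.7 CPM, a level set apart mainly by mouse 36. FBN1, fibrillin of elastic microfibrils, was above every control in all 6 treated mice (26.2, 41.2 and 127 CPM against 10.4, 13.3 and 18.7 CPM), yet its adjusted p was 0.0634 at a log2 fold change of 1.96. VTN, vitronectin, an adhesive plasma protein made by hepatocytes, lay below every control in all 6 (5818, 11747 and 14589 CPM against 14724, 21066 and 26904 CPM), with a log2 fold change of -0.93 and an adjusted p of 0.196. Among the 8 other matrix proteins tested edgeR called none and DESeq2 1, 4 had an unadjusted p under 0.05 and the median was 0.48, or 0.04 without mouse 31.

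**Figure D3:**
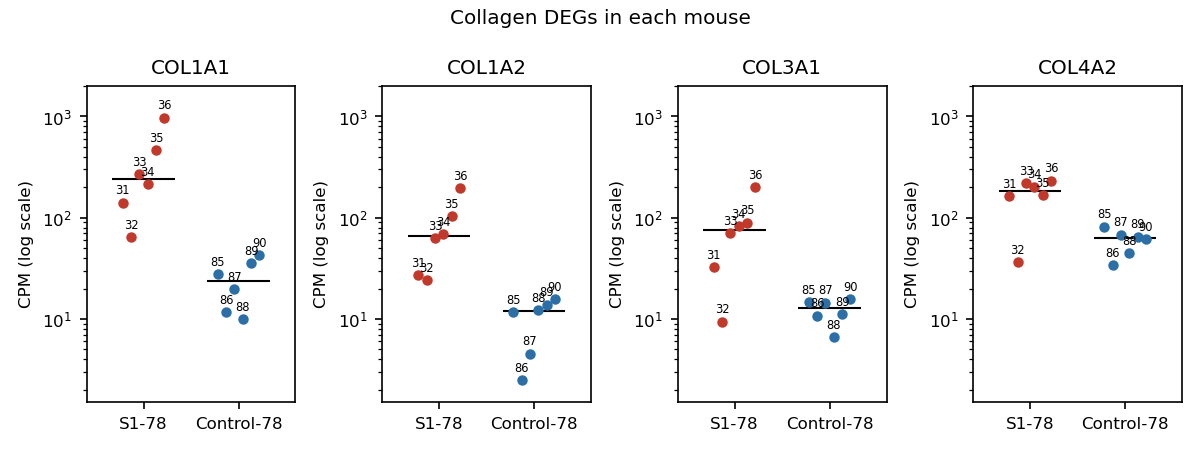
CPM of the 4 collagen DEGs in each mouse (points, numbered; log axis; bars are group medians). COL1A1 and COL1A2 do not overlap between groups, while mouse 32 lies among the controls for COL3A1 and COL4A2.

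Markers of the cells that make collagen were listed too, but the list itself holds COL1A1, COL1A2 and COL3A1, with LUM and LOXL1. Its counts, median and sum therefore include the collagen rise and are no separate measure of these cells. Of 12 markers of stellate cells and fibroblasts, 3 were DEGs, the same 3 fibrillar collagens, where 1.81% of all genes were DEGs in either direction. A log2 fold change above 0 was found for 11, as for 54.3% of all genes, and the median was 1.08, or 0.64 without mouse 36. Their summed level was 703 to 3446 CPM in S1-78 and 829 to 2217 CPM in Control-78, highest in mouse 36, and ECM1 was the most abundant of them in both groups. LUM, lumican, a proteoglycan that spaces collagen fibrils, had 13.4, 58.6 and 152 CPM against 12.3, 33.8 and 47.7 CPM (log2 fold change 1.09, adjusted p = 0.193). In a tissue extract, more cells of a type and more RNA per cell cannot be told apart. Without mouse 36, which held the pancreas and muscle transcripts, COL1A1, COL1A2 and COL3A1 kept their calls at log2 fold changes of 3.22, 2.49 and 2.21.

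In 5 further genes that rose, every treated mouse lay above every control. SDPR (Cavin2), a coat protein of caveolae, had 80.6, 97.4 and 166 CPM against 21.7, 40.2 and 50.4 CPM. No control reached any treated mouse, mouse 31 was highest, and the log2 fold change was 1.53 (SE 0.31, adjusted p = 0.00275). ABCC5, an exporter of nucleotide analogues, had 75.9, 133 and 301 CPM against 34.2, 53.6 and 67.6 CPM, a log2 fold change of 1.49 (SE 0.36, adjusted p = 0.0138). GIMAP4, a GTPase of lymphocytes, had 79.6, 139 and 224 CPM against 31.7, 56 and 72.3 CPM, a log2 fold change of 1.34 (SE 0.33, adjusted p = 0.0152). Neither gene overlapped between groups, mouse 31 was highest for both, and without it their adjusted p was 0.0844 and 0.063; for GIMAP4 it was 0.0559 without mouse 86. IGFBP6, which binds insulin-like growth factor II, also separated fully, at 7.58, 13.9 and 66.5 CPM against 0.61, 4.44 and 6.67 CPM. Its log2 fold change was 2.54 (adjusted p = 0.0276), or 1.92 (adjusted p = 0.175) without mouse 36, and the call was also lost without any 1 of mice 31, 85, 87, 88, 89 and 90. CLK2, a kinase of splicing factors, separated fully as well (54.5, 73.5 and 90.6 CPM against 32.5, 39.4 and 50.8 CPM), but at a log2 fold change of 0.83 its adjusted p of 0.0499 was lost in all 12 fits without 1 library, reaching 0.12 without mouse 86.

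Of 41 cell cycle genes tested, 1 rose, where 1.81% of all genes were DEGs in either direction. RRM1, the large subunit of ribonucleotide reductase, was that gene, at 50.4, 70.6 and 87.2 CPM against 30, 33.5 and 50.8 CPM, a log2 fold change of 0.87 (adjusted p = 0.0487). Mouse 32 alone fell in the control range, and the call was lost without any 1 of mice 31, 33, 34, 36, 86, 87, 89 and 90, with an adjusted p of up to 0.104. Of the 41 genes, 35 had a log2 fold change above 0, as did 54.3% of all genes. Their median of 0.79 was 0.59 without mouse 31, 0.42 without mice 31 and 36, and 0.29 without mouse 90 as well. MCM6, part of the replicative helicase, had 4.17, 6.94 and 46.5 CPM against 1.31, 3.04 and 7.51 CPM (log2 fold change 2.28, adjusted p = 0.0913), highest in mouse 31. CCNA2, the cyclin of DNA synthesis and mitotic entry, had 10.1, 35.4 and 92.7 CPM against 9.05, 16.7 and 28.3 CPM (log2 fold change 1.27, adjusted p = 0.2), again highest in mouse 31. HJURP, a chaperone of centromeric histone, went the other way, at 35.1, 78.4 and 87.3 CPM against 57.1, 123 and 343 CPM (adjusted p = 0.0634), with overlapping groups.

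Mouse 31 was highest for several genes that rose. AFP had 5.49, 13.2 and 2177 CPM in S1-78 against 6.34, 8.62 and 12.8 CPM, a log2 fold change of 5.38 (SE 1.22, adjusted p = 0.00625) that was 0.41 (adjusted p = 0.912) without mouse 31. AFP was the DEG among 8 hepatocellular tumour markers tested, where 1.81% of all genes were DEGs in either direction. The median of these markers was 0.90, or 0.43 without that mouse. GRIA3, a glutamate receptor subunit, had 11.4, 49.9 and 741 CPM against 3.29, 5.1 and 23.5 CPM, a log2 fold change of 4.21 (adjusted p = 0.0239). All treated mice but mouse 32 lay above every control. Without mouse 31 its value was 2.53 (adjusted p = 0.226), its call was also lost without mouse 86, 87, 89 or 90, and it was 4.80 (adjusted p = 0.0249) without mouse 85. BBC3 (Puma), a p53 target that triggers cell death, had 53, 87.9 and 452 CPM against 15, 31.9 and 76.2 CPM, a log2 fold change of 2.05 (adjusted p = 0.00609) and of 1.34 (adjusted p = 0.09) without mouse 31. The list of p53 targets and growth arrest genes did not share this rise. Of 17 tested, 1 was a higher DEG and 2 were lower, and the median was 0.05 against 0.07 for all genes. TRIB3, a stress-induced inhibitor of AKT, reached 1039.7 CPM in mouse 31 but had a median of 71.8 CPM against 59.6 CPM in controls, and was not a DEG (adjusted p = 0.0939). CTNND1, p120-catenin of cell junctions, was high in mice 31 and 32, at 4672 and 6139 CPM, while the other 4 held 883 to 1244 CPM and the controls 904 to 1487 CPM (log2 fold change 1.15, adjusted p = 0.0971). The AFP, BBC3 and GRIA3 values of mouse 31 stood beside a low C9, a terminal complement component made by hepatocytes, at 2170.3 CPM against 11084 to 14944 CPM in its group. Its sum of 18 complement genes was also the lowest, at 40433 CPM against 43927 to 58809 CPM. Other hepatocyte products were not low there. APOA1, an apolipoprotein, reached 43167 CPM against 7194 to 12153 CPM, and the hepatocyte marker sum of 88078 CPM lay within the range of the group.

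The largest fitted rises belonged to mouse 36. CTRB1 (chymotrypsinogen, 5506 CPM in mouse 36), CPA1 (a carboxypeptidase, 4368), CELA2A and CELA3B (elastases, 2882 and 2185), AMY2A4 (pancreatic amylase, 2291) and ZG16 (a zymogen granule protein, 1308) are products of pancreatic acinar cells. Their medians in S1-78 were 12.8, 2.02, 1.55, 1.21, 0.457 and 25.8 CPM, and no control exceeded 6.64 CPM for any of them. Log2 fold changes of 6.87 to 9.82 became 0.06 to 3.81 without mouse 36, and none of the 6 was then a DEG. Their calls also ended, at adjusted p of 0.0507 to 0.0943, without 1 control: mouse 87, 89 or 90 for CTRB1 and CPA1, these or mouse 88 for CELA2A, any but mouse 86 for AMY2A4, and any control for CELA3B (9.82 without mouse 89) and ZG16 (7.63 without mouse 88). ZG16 also lost its call without mouse 31. The amylase and elastase families have close copies, so the split of their reads is uncertain. AMY2A4 also reached 880 CPM in S2-78, 308 CPM in S1-10 and 185 CPM in S1-32, at medians of 0.992, 0 and 0.526 CPM. In S1-57 it reached at most 5.07 CPM. CKM (muscle creatine kinase, 2351 CPM), TNNI2 (fast troponin I, 1499) and MYLPF (fast myosin light chain, 1240.3) were the muscle genes. They had log2 fold changes of 8.34, 7.23 and 4.88, and of 1.06, 0.41 and 0.65 without mouse 36. The pancreas list had a median of 6.87 over 11 genes tested and 0.94 without this mouse, and AMY1, which liver also expresses, was its most abundant gene in controls. The muscle list, written after the values were seen, had a median of 4.05 over 6 genes tested and 0.53 without mouse 36. How these transcripts reached the library was not tested.

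IRS1, the docking protein that passes the insulin signal to PI3-kinase (ENSMUSG00000055980, GRCm38 chromosome 1), had 30.2, 44.9 and 64.4 CPM against 71.6, 129 and 177 CPM. No treated mouse reached the lowest control, and IRS1 fell with a log2 fold change of -1.49 (SE 0.34, adjusted p = 0.00625). Of 16 insulin signalling genes tested it was the DEG, where 1.81% of all genes were DEGs in either direction. Their median was -0.13 (-0.30 without mouse 32, -0.06 without mouse 33). A log2 fold change below 0 was found for 12 of them, while 54.3% of all genes lay above 0. GSK3B, the kinase that restrains glycogen synthase, had 138, 149 and 184 CPM against 182, 209 and 297 CPM, with 5 of 6 treated mice below every control (log2 fold change -0.49, adjusted p = 0.238).

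Of 29 genes of xenobiotic oxidation tested, FMO5 and ALDH2 fell, where 0.816% of all genes were lower DEGs. FMO5, a flavin monooxygenase, had 532, 837 and 1427 CPM against 975, 2222 and 3732 CPM, and 4 of 6 treated mice lay below every control. Its log2 fold change was -1.21 (SE 0.27, adjusted p = 0.00609). ALDH2, the mitochondrial enzyme that clears acetaldehyde, had 3596, 4962 and 6071 CPM against 7666, 9005 and 10693 CPM, so the groups did not overlap. With a log2 fold change of -0.87 (SE 0.24, adjusted p = 0.0364), its call was lost without any 1 of mice 31, 34, 36, 86, 87, 88, 89 and 90, at adjusted p of up to 0.0815. The median of the 29 genes was -0.19, with 11 above 0; it was -0.00 without mouse 31, -0.36 without mouse 33 and 0.05 without mice 31 and 36. EPHX2, soluble epoxide hydrolase, had 2176, 5163 and 7894 CPM against 7634, 10396 and 14238 CPM and missed the threshold (log2 fold change -1.04, adjusted p = 0.0811), with mouse 32 alone inside the control range.

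A glycosylation gene, 1 of 7 tested, and a cholesterol synthesis gene, 1 of 13, also fell, where 0.816% of all genes were lower DEGs. DPM1, the catalytic subunit that makes dolichol-phosphate-mannose for protein glycosylation, had 246, 412 and 476 CPM against 448, 996 and 3010.0 CPM. Mouse 35 alone reached the control range, and the log2 fold change of -1.63 (SE 0.37, adjusted p = 0.00631) was -1.12 (adjusted p = 0.11) without mouse 86, the highest control. EBP, the sterol isomerase of cholesterol synthesis, had 27, 76.4 and 105 CPM against 59.1, 230 and 532 CPM, a log2 fold change of -1.84 (SE 0.51, adjusted p = 0.0407). Mouse 31 was lowest and control mouse 85 lay among the treated mice. The call was kept without mouse 32, 85 or 88 and lost without any other 1 library (adjusted p of up to 0.14, without mouse 86) and with RLE factors. Of 13 cholesterol synthesis genes tested, 12 had a log2 fold change below 0 with TMM factors, while 54.3% of all genes lay above 0. Their median was -0.71, and -0.63 and -0.64 with RLE and upper-quartile factors. FDFT1, squalene synthase, had 102, 261 and 338 CPM against 251, 383 and 654 CPM (log2 fold change -0.71, adjusted p = 0.303).

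Further genes that fell were a chaperone of the cytosol and regulators of protein and RNA. HSPA4, an HSP110-type chaperone, had 777, 861 and 923 CPM against 1088, 1610.3 and 2038 CPM. The treated mice were close to each other and all below the controls, with a log2 fold change of -0.87 (SE 0.21, adjusted p = 0.0137). CEBPZ, a nucleolar factor of ribosome assembly, lay between 158 and 174 CPM in all treated mice against 191, 318 and 447 CPM, a log2 fold change of -0.99 (adjusted p = 0.027). Its call was lost without any 1 of mice 31, 34, 36, 86, 87 and 89, at adjusted p of up to 0.0843. TM7SF3, a membrane protein of stress survival, had 173, 235 and 345 CPM against 460, 503 and 740 CPM, again with no overlap, a log2 fold change of -1.11 (adjusted p = 0.0302) and a call lost without mouse 31, 34, 36 or 89. HSPB1, the small heat shock protein HSP27, had 23.2, 77.3 and 247 CPM against 220, 288 and 639 CPM, with mouse 36 alone in the control range. Its log2 fold change of -1.65 (adjusted p = 0.031) was -1.40 (adjusted p = 0.105) without mouse 87, and the call was also lost without mouse 31, 33, 34, 35, 89 or 90. YTHDF1, a reader of methylated RNA, and SHB, an adaptor of tyrosine kinases, had log2 fold changes of -0.84 and -1.52, at adjusted p of 0.0371 and 0.0487, with overlapping groups. YTHDF1 lost its call without any 1 of mice 31, 32, 33, 34, 36, 87, 89 and 90 (adjusted p of up to 0.0978), and SHB kept it without mouse 32 or 85 alone (adjusted p of up to 0.116). HSPA5 (BiP), the chaperone of the endoplasmic reticulum, had 153, 254 and 328 CPM against 122, 565 and 1086 CPM and was not a DEG (log2 fold change -1.21, adjusted p = 0.105), as none of 23 genes of the unfolded protein response was by edgeR (1 by DESeq2), with 3 at an unadjusted p under 0.05.

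FOS had the largest fitted fall of the DEGs, and controls differed widely among themselves. FOS, the immediate-early transcription factor, had 2.41, 11.2 and 88.7 CPM in S1-78 against 9.45, 56.9 and 1126 CPM in Control-78. Control mice 89 and 90 held 1126 and 966 CPM and the other 4 held 9.45 to 60.7 CPM, within the range of S1-78. The log2 fold change was -4.01 (SE 0.90, adjusted p = 0.00609), -3.25 (adjusted p = 0.0454) without mouse 89 and -5.31 (adjusted p = 0.000859) without mouse 31. Of 14 immediate-early genes tested FOS was the DEG, where 1.81% of all genes were DEGs in either direction. An unadjusted p under 0.05 was found for 6 of them, and for 13.6% of all genes. Their median of -0.99 was 0.03 without mouse 90 and -1.57 without mouse 31. EGR1, a zinc finger factor of the same wave, had 0, 12.2 and 179 CPM against 0, 97.7 and 1969.6 CPM (log2 fold change -3.57, adjusted p = 0.0788), and EGR2 a log2 fold change of -4.64 (adjusted p = 0.0558), both highest in mouse 90.

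Several DEGs were highest in mouse 90. TRIB1, a pseudokinase that directs C/EBP factors to degradation, reached 19277 CPM there, against 457 to 1757 CPM in the other controls and 382 to 775 CPM in S1-78. SRXN1, sulfiredoxin, which repairs oxidized peroxiredoxins, reached 2911 CPM against 64.5 to 578 CPM and 42.2 to 155 CPM. GADD45A, a p53-induced growth arrest protein, reached 1581 CPM against 65.4 to 220 CPM and 56.7 to 132 CPM, so that for these genes the other controls overlapped the treated mice. Their log2 fold changes of -2.80, -2.89 and -2.05 became -0.86, -1.14 and -0.44 without mouse 90, and none was then a DEG (adjusted p = 0.12, 0.353 and 0.641). DNAJB1, an HSP40 co-chaperone, had 12.2, 24 and 27 CPM against 11.7, 58 and 513 CPM, a log2 fold change of -2.74 (adjusted p = 0.00275) and of -1.65 (adjusted p = 0.0855) without mouse 90. PLK3, a stress-activated polo-like kinase, differed from these in that all 6 treated mice (61.8, 92.3 and 150 CPM) lay below all controls (168, 349 and 2031 CPM). Its log2 fold change was -2.59 (SE 0.51, adjusted p = 0.00243), and -1.67 (adjusted p = 0.0564) without mouse 90. What set mouse 90 apart was not tested.

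DBP, a transcription factor whose level swings over the day under the circadian clock, had 21, 27.1 and 98 CPM in S1-78 and 11.5, 142 and 2233 CPM in Control-78. Control mice 85, 86 and 88 held 2233, 848 and 271 CPM and mice 87, 89 and 90 held 12.1, 11.5 and 12.5 CPM, so the treated mice lay between 2 sets of controls. The log2 fold change was -3.91 (SE 1.09, adjusted p = 0.0407), and -2.69 (adjusted p = 0.15) without mouse 85; the call was also lost without any 1 of mice 31, 33, 34, 35, 36 and 86. BHLHE40, a clock repressor, had 205, 388 and 607 CPM against 462, 655 and 1379 CPM, with 5 of 6 treated mice below every control (log2 fold change -0.97, adjusted p = 0.299). The time of day of each collection was not analysed here.

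By edgeR, 16 of 45 gene lists held a DEG and 29 held none, while DESeq2 called a gene in some of the 29. The medians of the lists without DEGs ran from -0.49 to 1.23, against 0.07 for all genes. All 9 endothelial markers tested had a log2 fold change above 0 with a median of 0.67, or 0.42 without mouse 36, and 8 of 10 macrophage markers with a median of 0.70, yet edgeR and DESeq2 called 0 in either list and 0 had an unadjusted p under 0.05. Interferon and antigen presentation genes had a median of 0.52 over 23 genes, and 17 of them had a log2 fold change above 0. In this list edgeR called 0 genes and DESeq2 1. Of 6 cholangiocyte markers, KRT19, the keratin of bile ducts, had 9.76, 53.5 and 207 CPM against 3.05, 7.54 and 47 CPM (log2 fold change 2.28, adjusted p = 0.223); mouse 35 was highest and 4 of 6 treated mice lay above every control. Their median of 1.23 was 0.72 without mouse 31 and 2.03 without mouse 90.

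Some lists leaned lower, where 54.3% of all genes had a log2 fold change above 0. Housekeeping genes leaned the same way, with 8 of 10 below 0 and a median of -0.13. The respiratory chain and ATP synthase had 15 of 19 genes below 0 and a median of -0.35; NDUFA9, a subunit of complex I, had 343, 768 and 912 CPM against 718, 1001 and 1820.4 CPM (log2 fold change -0.58, adjusted p = 0.259). Fatty acid oxidation and PPARA targets had a median of -0.34 over 23 genes, or -0.11 without mouse 85, and 16 of them had a log2 fold change below 0. Acute phase genes had a median of -0.49 over 18 genes, -0.96 without mouse 34, -0.30 without mouse 89 and -0.21 without mice 31 and 36. CEBPB, the factor that drives many of them, had 2456, 4380.2 and 16038 CPM against 6006, 19508 and 22703 CPM (log2 fold change -1.42, adjusted p = 0.1), with 4 treated mice below every control. Glutathione and NRF2 targets had a median of -0.35 over 27 genes, or -0.18 without mouse 85. SRXN1 was their DEG, where 1.81% of all genes were DEGs in either direction. Of 5 tested genes of the pyruvate dehydrogenase complex and DCA handling, edgeR and DESeq2 called 0 and 0 had an unadjusted p under 0.05. GSTZ1, the enzyme that breaks DCA down, had 3160.4, 3949.7 and 12274 CPM against 4511, 6874 and 9943 CPM (log2 fold change -0.40, adjusted p = 0.646), with mouse 32 above every control and 4 treated mice below.

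**Figure D4:**
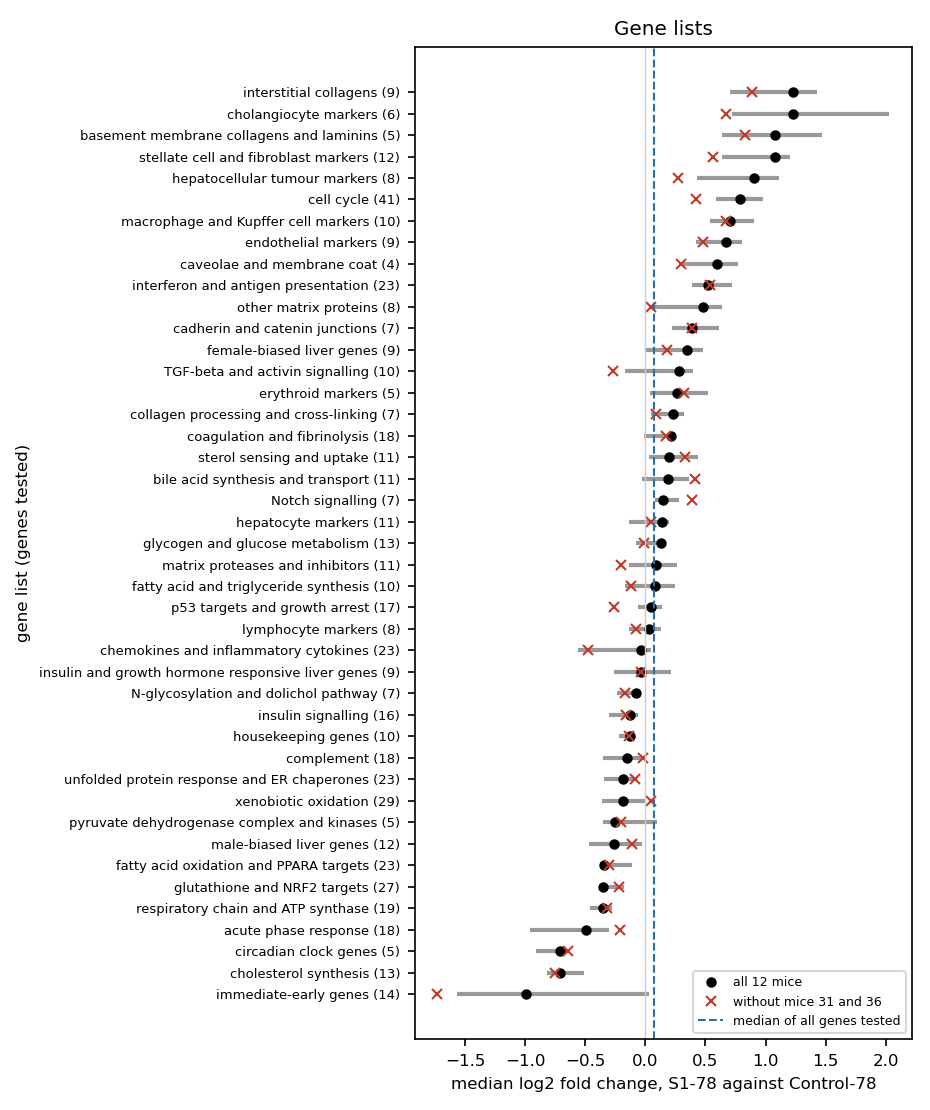
Median log2 fold change of each list with at least 4 genes tested, pancreas and muscle lists left out: points are all 12 mice, crosses are without mice 31 and 36, grey bars span the fits without 1 library, and the dashed line is the median of all genes (0.07). Interstitial collagens and cholangiocyte markers have the highest medians (both 1.23) and immediate-early genes the lowest (-0.99), with a bar that reaches 0.03.

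Whether the late difference was already there 47 weeks after withdrawal was tested by subtracting the change of S1-57 against Control-57 from that of S1-78 against Control-78. Of the collagens, COL1A1 alone passed this test. It had 27.5, 88.1 and 181 CPM in S1-57 and 31.5, 62.9 and 194 CPM in Control-57, so these groups overlapped, with a log2 fold change of -0.04. The difference between the 2 changes was 3.88 (SE 0.81, adjusted p = 0.0119), or 3.26 (adjusted p = 0.113) without mouse 36. DNAJB1 was the other gene to pass, at -3.97 (adjusted p = 0.00822), or -2.89 (adjusted p = 0.155) without mouse 90. Together they were 2 of 2205 genes (0.0907%), with 102 at an unadjusted p under 0.05, and the count was 5 without mouse 31, 1 without mouse 36 and 1 without mouse 90. Both calls ended without mice 31, 36 and 90 (adjusted p = 0.132 and 0.189). The differences for COL1A2 and COL3A1 were 2.87 and 2.80 (adjusted p = 0.208 and 0.17), and did not pass.

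Of the 40 DEGs, 32 had a log2 fold change of the same sign at 57 weeks. This count was not set beside the share over all genes, so no agreement is read from it. S1-57 had 35 DEGs against its own controls (1.59%), and 5 of them were among the 40 of S1-78, which is 14.3% of the first list and 12.5% of the second. These were ALDH2, DBP, DPM1, FMO5 and TM7SF3, all lower at both times. FMO5 had 335, 979 and 1177 CPM in S1-57 against 1509.7, 2406 and 3512 CPM in Control-57, a full separation with a log2 fold change of -1.48 (adjusted p = 0.00117), and remained among the shared genes in all 12 fits that left out 1 library of these groups. The number shared was 1 to 5 in those fits, 1 without mouse 83 of Control-57, where S1-57 had 8 DEGs; it had 6 without mouse 82, and 9, 11, 15, 16, 18 and 20 without mice 29, 30, 27, 25, 28 and 81.

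The change at the end of exposure was compared in the same way, using S1-10, and 22 of the 40 DEGs had the same sign at both times. Here too the count was not set beside the share over all genes, so neither agreement nor reversal is read from it. COL1A1 at 10 weeks had 19.3, 42.5 and 60.7 CPM in DCA-treated mice against 101, 197 and 224 CPM in Control-10, where every treated mouse lay below every control (log2 fold change -2.05, adjusted p = 0.0338). The change at 78 weeks exceeded it by 5.88 (SE 0.86, adjusted p = 1.07e-05). COL1A2, COL3A1, SDPR and IGFBP6 also differed, with differences of 4.41, 4.21, 2.44 and 5.32 (adjusted p = 0.0017, 0.00119, 0.000735 and 0.000735), and these 5 passed without any 1 library. SDPR had 55.3, 73.1 and 101 CPM in S1-10 against 85.5, 142 and 208 CPM in Control-10, with overlapping groups (log2 fold change -0.91, adjusted p = 0.0986). Control medians of COL1A1 and SDPR were lower at 78 than at 10 weeks, while SDPR in DCA-treated mice had medians of 73.1, 94.4, 101 and 97.4 CPM at 10, 32, 57 and 78 weeks.

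**Figure D5:**
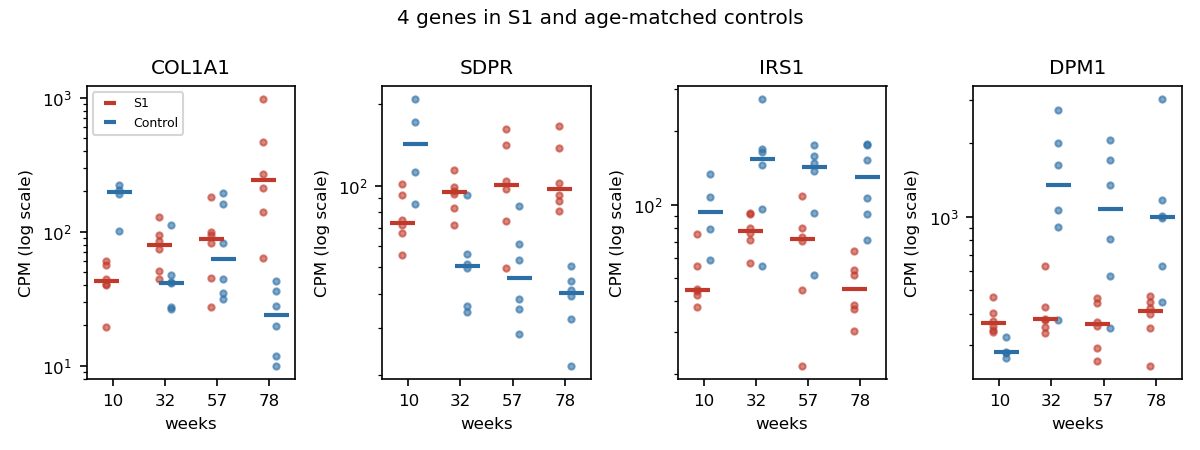
CPM of COL1A1, SDPR, IRS1 and DPM1 in S1 (red) and age-matched controls (blue) at 10, 32, 57 and 78 weeks (points are mice, bars are medians; log axes). Medians of COL1A1 and SDPR are lower than in controls at 10 weeks and higher at 78 weeks; IRS1 medians are lower than controls at each time, and DPM1 medians from 32 weeks on.

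In all, 93 genes differed in their change between 10 and 78 weeks (4.22%), 68 with the higher change at 78 weeks (3.08%) and 25 with the lower (1.13%). ALDH2 was among the latter, at -1.54 (adjusted p = 0.00797). ENPP6, a choline-releasing phosphodiesterase, had 5.32, 9.39 and 25.8 CPM in S1-10 and no count in any mouse of Control-10, but 0, 2.8 and 5.79 CPM in S1-78 against 2.5, 7.21 and 14.6 CPM. Its difference of -9.23 (adjusted p = 0.000735) depends on the prior count of the fit, because a group without counts has no fold. SERPINE2, an inhibitor of thrombin and urokinase, had 56.2, 86.7 and 124 CPM against 3.45, 6.25 and 21.2 CPM at 10 weeks and 4.25, 11.2 and 56.4 CPM against 28.4, 51.6 and 76.7 CPM at 78 weeks. Every treated mouse was above the controls at the first time and all but mouse 32 below them at the second, a difference of -4.92 (adjusted p = 0.00119). Mouse 68 of Control-10 carried much of the count, which was 14 without it, 52 without mouse 31 and 153 without mouse 86. S1-10 itself had 121 DEGs against Control-10 (5.49%), and 0 without mouse 68 (204 at an unadjusted p under 0.05, by edgeR); it had 66, 70, 70 and 64 without mice 14, 15, 16 and 18. Of the 121, COL1A1 and IGFBP6 were shared with the 40 of S1-78, 1.65% and 5% of the lists, both in the opposite direction, and at 10 weeks COL1A1 lost its call without any 1 library other than mouse 72, and IGFBP6 without mouse 68.

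Whether 32 weeks of DCA left a different liver at 78 weeks than 10 weeks of DCA was tested directly between the exposed groups. Time off DCA also differed, at 46 weeks in S2-78 and 68 in S1-78, so exposure length alone was not tested. S2-78 against S1-78 gave 2 DEGs (0.0907%), CYP4A14 and CYP4A10, fatty acid omega-hydroxylases induced through PPARA, with 171 genes at an unadjusted p under 0.05. CYP4A14 had 0, 4.73 and 11.2 CPM in S1-78 against 0, 3889 and 10295 CPM in the 4 mice of S2-78, and CYP4A10 had 0, 2.48 and 15.7 CPM against 0, 2753 and 7776 CPM. Some mice of S2-78 were high and others at the level of S1-78, so the groups overlapped. The log2 differences were 9.72 (adjusted p = 0.0369) and 9.48 (adjusted p = 0.0267), and these close copies may share reads. CYP4A14 kept its call without mouse 45 or 47 alone (adjusted p of up to 0.166) and CYP4A10 without mouse 32, 35, 45 or 47 alone (adjusted p of up to 0.14). The count of DEGs was 0 without mouse 33, 34, 36, 43 or 44, with 136 to 193 at an unadjusted p under 0.05, 1 without mouse 31 or 35, 5 without mouse 47 and 6 without mouse 45. Without mouse 44 the differences were 8.92 for CYP4A14 and 8.62 for CYP4A10, and without mouse 35 that of CYP4A10 was 10.50. COL1A1 had 55.1, 262 and 540 CPM in S2-78, and its difference from S1-78 was -0.34 (SE 0.62, adjusted p = 0.943). IRS1 had 33.6, 50.4 and 66.9 CPM and a difference of 0.14 (SE 0.37, adjusted p = 0.955).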

How the data were processed

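TempO-Seq libraries of mouse liver were read from the deposited tables. The authors' count table holds raw counts per gene for 78 libraries, after alignment with Bowtie. The authors' normalized and filtered tables, made in Partek 10.0.22.0524, hold signal values for 68 libraries. The values are (count + 1) divided by a factor per library, except for 1 gene, MUP8, which departs by a fraction of up to 0.00335. Both tables set which libraries and which 2205 genes were used. Counts of the 68 libraries were fitted with edgeR 4.0.16 (limma 3.58.1, R 4.3.3) by quasi-likelihood, with TMM factors and a model of 13 groups, and p-values were adjusted over 2205 genes by Benjamini-Hochberg. Adjusted p in the text is edgeR's. DEGs passed an adjusted p of 0.05 and a fold change of 1.5; differences between changes passed the adjusted p alone. Other steps used Python 3.11.15, pandas 2.3.3 and numpy 2.4.6. Alternatives were RLE and upper-quartile factors, 2 gene filters, all 78 libraries, DESeq2 1.42.0 with and without independent filtering, fits of fewer groups, the adjusted p alone, total count as covariate and each library left out. Leaving out mice 31 and 36, with or without mouse 90, was added after the data were seen, as was 1 of the 45 lists.

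Named genes are the DEGs, up to 4 members of each list with the smallest p, and genes named in the study. DPM1, SMC3 and VTN came from earlier results. Up to 5 genes in each direction of the other comparisons, with a mean of 10 CPM, were also named. ECM1 and AMY1 were named as the most abundant of their lists. HES1 and SERPIND1, named in the study, and SMC3 were not DEGs in S1-78 against Control-78. Their log2 fold changes were 1.17, 0.30 and 1.06 (adjusted p = 0.0703, 0.759 and 0.092). The libraries, lists and comparisons were chosen with earlier results of these data known. The code was tested on simulated data. No library of S1-78 or Control-78 duplicated another of its group: chi-square over degrees of freedom was 54.3 in the closest pair (mice 33 and 35).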

Additional observations from a re-analysis of the deposited data

Results flagged for a closer look

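For 65 genes and the total count in S1-78 and in Control-78, 132 groups of 6 values, the gap between the end mouse and its neighbour was divided by the group's range, both on log2(CPM + 1), and 23 groups (17.4%) had a gap above Dixon's critical value, which chance exceeds in about 1 of 20. Many of these genes were named for a change that 1 mouse carries, so this share is not read against chance. Mouse 36 stood high for AMY2A4 (0.723), CELA2A (0.676), CKM (0.716), CPA1 (0.667), FBN1 (0.657), MYLPF (0.802) and TNNI2 (0.739). Mouse 31 stood high for AFP (0.797) and TRIB3 (0.639) and low for C9 (0.845) and EBP (0.680). Mouse 32 stood high for DBP (0.738) and GSTZ1 (0.679) and low for COL4A1 (0.627), COL4A2 (0.810) and YTHDF1 (0.723). Mouse 34 stood low for HJURP (0.756). Among the controls, mouse 85 stood low for CEBPB (0.626), IGFBP6 (0.655) and SHB (0.764), mouse 87 high for GSK3B (0.690), mouse 89 high for TM7SF3 (0.639) and mouse 90 high for TRIB1 (0.640).

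Changes that differed between times were set apart by the test of the difference itself. From 57 to 78 weeks these were COL1A1 (3.88) and DNAJB1 (-3.97). From 10 to 78 weeks the largest differences upward were in CKM (9.80), TNNI2 (8.44), AFP (8.12), GXYLT2 (7.38) and KIF5C (6.73), and the largest downward in ENPP6 (-9.23), CES2H (-5.59), SERPINE2 (-4.92), LAMA3 (-3.76) and C9 (-3.46). Without mouse 36, CKM gave 2.59 and TNNI2 1.67, and without mouse 31, AFP gave 3.18, GXYLT2 5.91, KIF5C 0.37 and C9 -3.28, none of which passed. Without mouse 68 of Control-10, CKM gave 3.73, TNNI2 6.48, GXYLT2 4.27, KIF5C 2.95, LAMA3 -3.37 and C9 -3.10, and none passed. KIF5C passed in 10 of 22 fits without 1 library, and failed without mouse 13, 14, 15, 17, 18, 31, 68, 85, 87, 88, 89 or 90. CES2H also passed in 10 of 22, and failed without mouse 15, 16, 17, 18, 31, 32, 36, 68 (-5.21), 71, 72, 85 or 90. ENPP6 and SERPINE2 passed without any 1 library. The causes were not tested.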

How the results depend on the processing

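For 65 of the genes named in the report, 628 results of S1-78 against Control-78 without 1 library kept direction and side of the threshold. Of the other results, 141 lost the threshold, 11 gained it and 0 turned direction. Under the other alternatives these numbered 547, 203, 21 and 9. Genes named only for the other comparisons were outside this count, as were APOA1, HES1, SERPIND1 and SMC3. DEGs of S1-78 against Control-78 numbered 40, and 17 with all 78 libraries, 85 with DESeq2 with or without independent filtering, 0 with the compared groups alone (338 at an unadjusted p under 0.05), 0 with the 78-week groups alone (212), 11 without mice 31 and 36, 2 without mice 31, 36 and 90, and 20 to 75 without 1 library. Between 57 and 78 weeks, 2 genes differed, against 0 with all 78 libraries (58), 8 with DESeq2 either way, 0 with the compared groups alone (109), 1 and 0 without the 2 or 3 mice, and 1 to 5 without 1 library. Between 10 and 78 weeks, 93 differed, against 37 with the total count as covariate, 212 with DESeq2 either way, 29 and 15 without the 2 or 3 mice, and 14 to 153 without 1 library. S2-78 against S1-78 had 2 DEGs, against 0 with all 78 libraries (265), 0 with the covariate (165), 4 with DESeq2 and 13 with independent filtering, 0 with the compared groups alone (99), 0 and 0 without the 2 or 3 mice (183 and 180), and 0 to 6 without 1 library. Without mice 31 and 36, direction turned for AMY2A4 (-2.25), CELA2A (-1.59), CELA3B (-0.67) and TNNI2 (-0.31). Without mouse 90 as well, it turned for AMY2A4 (-2.34), CELA2A (-1.53), CELA3B (-0.95), CPA1 (-0.04) and TNNI2 (-0.48). The median log2 fold change of all genes was 0.07 with TMM, 0.15 with RLE and 0.16 with upper-quartile factors. The cause was not tested.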

Other observations

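Summed levels of further lists set 1 treated liver apart from the rest. Mouse 31 was the lowest of S1-78 for bile acid synthesis and transport genes, at 889 CPM against 4488 to 7117 CPM in its group and 3917 to 6314 CPM in the controls. It was also lowest for xenobiotic oxidation genes, at 14654 CPM against 31077 to 51431 CPM and 42468 to 65544 CPM, and for male-biased liver genes, at 10125 CPM against 134745 to 273371 CPM and 184002 to 713459 CPM. In the male-biased list MUP8 was the most abundant gene of both groups. No gene of the bile acid list or of the male-biased list was a DEG by edgeR or DESeq2, 0 in each, with 1 and 1 at an unadjusted p under 0.05.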
